A study of Mus musculus with 54 samples.

Results

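The genes Pou2af1, Pou2f2 and Spib encode 3 B-lineage transcription regulators, and the chromatin around them was read in every deposited region table of the study. Their regions were chosen by gene name, as the accessible regions whose nearest annotated start belongs to one of the 3 genes. They number 10 of the 4829 regions in the table that compares E2A-KO with Wt accessibility (5 of Pou2af1, 3 of Pou2f2 and 2 of Spib), and the 3 genes are among 1788 named there. Of the 3642 regions with histone and RNA polymerase II (PolII) values 9 belong to them, as do 3 of the 1172 regions bound by Ebf1 and 21 of the 65093 accessible regions of the B-cell progenitor line 230-238.

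Pou2af1 (also OCA-B) is a coactivator with no sequence-specific DNA binding of its own, which docks onto POU proteins at octamer elements of immunoglobulin and other B-cell promoters. Pou2f2 (Oct-2) is one of these POU proteins, and Spib (Spi-B) is an Ets-family factor close to PU.1 that binds GGAA-containing sites. E2A and Ebf1 are early B-lineage transcription factors, with Pax5 acting downstream of them, and both knockouts stop B-cell development before commitment.

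The study measured chromatin in cultured C57BL6/J mouse fetal liver progenitors, labelled as pro-B cells, of 3 genotypes: Wt, Ebf1-KO (lacking the B-lineage factor Ebf1) and E2A-KO (lacking the Tcf3 products). All groups share the culture, on an OP9 stromal feeder in medium with interleukin-7, FLT3 ligand and KIT ligand. Ebf1-KO cells carrying the pMiG-Ebf1ER vector, which encodes Ebf1 joined to a 4OHT-responsive receptor domain, were taken at 0, 6, 24 and 72 h of 4OHT, and no 4OHT control without Ebf1ER is labelled. The 230-238 line, a single Abelson-transformed line of mouse B-cell progenitors, gave the Ebf1 and Pax5 peaks and the H3K4me3 PLAC-seq contacts, so binding by Ebf1 or Pax5 was not measured in the fetal liver cells.

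Each value is the number of sequenced tags in a region per 10000000 tags of its library, as deposited by the authors, and is not divided by region length. Every group is 1 column, either a pool or a single library, so no result has a replicate error or a p-value. Intervals in parentheses are exact 95% intervals for counting error only, and folds compare these libraries, not the conditions. "Higher" or "lower" in a count means at least 2-fold on the scale of value plus 1. Library totals ran from 24557525 tags (Wt H3K27ac) to 196071042 tags (Ebf1-KO H3K4me3). The authors had picked the tables' genes for enrichment in Wt, and a lower knockout signal is therefore not independent evidence. In bulk cells, fewer cells of a type and less signal per cell cannot be told apart. Of 10 progenitor B markers 9 had regions, with a summed accessibility of 699 in Wt and 198 in E2A-KO, and 3 of 6 myeloid markers had regions, with 211 and 140. Of the T-cell markers 1 of 6 had a region, at 16.3 and 10.5. Of the natural killer markers 1 of 3 had one, at 127 and 65.2, and the 3 erythroid and 3 stromal markers had none. The same selection of genes limits which markers can have a region, so a missing marker cannot show which cells were absent. In the Abelson-transformed B-cell progenitor line, all 3 erythroid and all 3 stromal markers had accessible regions. The part that the mix of cells plays in the results was not tested.

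The promoters are shown because the largest differences in H3K4me3, PolII, BRG1 and EP300 lay at 1 of them and because the genes differ in how their starts sit in accessible chromatin. The sequences are the 250 bases before each gene's start, 5′ to 3′ on the gene's strand, from RefSeq (GRCm38.p6, whose chromosome coordinates are those of mm10). Capitals mark the motif matches described below.
Pou2af1, chr9:51213440-51213689, plus strand: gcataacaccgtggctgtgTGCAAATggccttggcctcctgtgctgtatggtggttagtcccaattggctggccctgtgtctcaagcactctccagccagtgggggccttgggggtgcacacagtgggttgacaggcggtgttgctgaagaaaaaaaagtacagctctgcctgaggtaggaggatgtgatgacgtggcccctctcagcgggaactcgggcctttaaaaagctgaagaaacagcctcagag
Pou2f2, chr7:25132461-25132710, minus strand: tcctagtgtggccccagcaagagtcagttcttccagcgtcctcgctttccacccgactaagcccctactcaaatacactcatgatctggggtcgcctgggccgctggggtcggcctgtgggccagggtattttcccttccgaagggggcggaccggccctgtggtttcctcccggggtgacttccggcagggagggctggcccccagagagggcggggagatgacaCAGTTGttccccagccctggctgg
Spib, chr7:44532072-44532321, minus strand: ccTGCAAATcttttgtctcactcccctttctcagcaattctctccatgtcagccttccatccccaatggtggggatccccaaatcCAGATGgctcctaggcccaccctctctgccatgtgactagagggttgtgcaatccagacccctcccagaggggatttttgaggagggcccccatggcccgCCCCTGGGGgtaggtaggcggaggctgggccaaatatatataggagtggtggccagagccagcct

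Windows from 250 bases before to 50 after the start were searched on both strands for 4 motifs. The octamer ATGCAAAT, the element that POU proteins bind, was in none of the 3 windows and in 1.74% of 32851 RefSeq promoters. A shorter word, TGCAAAT, was added after the sequences had been read. It lay at -231 in Pou2af1 and at -248 in Spib, and 4.02% of promoters hold it. The Ebf1 motif CCCNNGGG was matched in Spib at -65 and -64, where both matches overlap, and 13.7% of promoters hold it. The E-box CANCTG, the motif of E2A proteins, was on the minus strand in Pou2f2 at -24 and in Spib at -165, with 51.4% of promoters holding it. AGGAAG, a longer word around the Ets core GGAA, was in none of the 3, against 35.4% of promoters. GGAA alone was not searched for. All 300 bases of the Pou2af1 and of the Pou2f2 window lay in accessible regions of the tables, and 0 of the 300 bases of the Spib window did. These matches describe letters and not occupied sites.

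Pou2af1 has the most regions. The promoter region, -0.14 kb from the start at its centre (chr9:51212995-51214114, mm10), is 1120 bp long, is classed by the authors as open in Wt and Ebf1-KO cells, and carries an Ebf1 and a Pax5 peak in the 230-238 line. Another region open in both lies in intergenic sequence at -29.94 kb (chr9:51183156-51184352). Between them are 3 short intergenic regions. Those at -2.42 kb (chr9:51211102-51211438) and -1.05 kb (chr9:51212490-51212796) are classed as open in Wt only, and the region at -1.90 kb (chr9:51211695-51211888) is in neither class and has accessibility values only.

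The regions of Pou2f2, on the minus strand of chromosome 7, are all classed as open in both. Its promoter is covered by a pair of regions at -0.20 kb (chr7:25132386-25132933) and -0.77 kb (chr7:25132984-25133474), and the third lies in intron 1 at +2.61 kb (chr7:25129414-25130291) and has an Ebf1 peak without a Pax5 peak. Spib, also on the minus strand of chromosome 7, has a region in its own intron 1 at +0.66 kb (chr7:44531211-44531615) and one at -2.42 kb (chr7:44534017-44534974). The latter sits inside intron 21 of the neighbouring gene Pold1, which encodes the catalytic subunit of DNA polymerase delta, and carries Ebf1 and Pax5 peaks. The Spib start itself thus lies between its regions.

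E2A-KO cells were compared with Wt cells to see which accessible regions depend on E2A. Scaled by library totals, all 10 regions had less accessibility in E2A-KO, with a wide spread between and within the genes. The Pou2af1 promoter and its -2.42 kb region, and the Spib intron region, were lower by about an order of magnitude, and the Pou2f2 promoter was close to the typical region. Of the 10 regions 8 were lower and 0 higher, and 37.6% of all 4829 regions were lower. The median log2 ratio of all regions was -0.76, so ratios are also given relative to it. With TMM scaling, which centres the typical region, 14.8% of all regions were lower and 5.90% higher in place of 37.6% and 1.01%, and 3 of the 10 remained lower, namely the Pou2af1 promoter, its -2.42 kb region and the Spib intron region.

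At the Pou2af1 promoter, E2A-KO cells had 10.0 scaled tags (8.02–12.4) against 123 (117–128) in Wt. The fold was 12.2 (9.85–15.4). The log2 ratio was -3.49, or -2.73 relative to all regions, the 54th lowest of 4829. The -2.42 kb region held 1.05 scaled tags (0.480–1.99) in E2A-KO and 13.5 (11.7–15.4) in Wt, 12.8-fold (6.63–28.5) lower. These regions, 1 classed as open in Ebf1-KO cells and 1 not, thus had nearly the same fold. On the scale of value plus 1 their log2 ratios were -3.49 and -2.82. Per kb of region, their Wt levels were 109.5 and 39.9.

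The other Pou2af1 regions had lower signal and smaller ratios. The -29.94 kb region held 6.88 (5.24–8.87) in E2A-KO and 15.2 (13.3–17.2) in Wt, 2.20-fold (1.65–2.98) lower, or -0.28 relative to all regions. At -1.05 kb the values were 1.40 (0.723–2.44) and 5.01 (3.95–6.26), 3.58-fold (1.94–7.23) lower. At -1.90 kb they were 0.82 (0.328–1.68) and 3.25 (2.41–4.29), 3.96-fold (1.80–10.4) lower, from 7 and 50 tags. Summed over its 5 regions, Pou2af1 had a log2 ratio of -2.92, and of -1.77 without the promoter, so the promoter carries much of the sum.

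Pou2f2 differed least. Its intron region held 16.8 (14.2–19.8) in E2A-KO and 44.3 (41.0–47.7) in Wt, 2.64-fold (2.20–3.18) lower, with a log2 ratio of -1.35. The -0.20 kb promoter region held 10.7 (8.65–13.2) and 22.3 (20.0–24.8), 2.08-fold (1.65–2.65) lower, which gives a log2 ratio of -0.99 on the scale of value plus 1. The -0.77 kb region held 14.8 (12.3–17.6) and 24.3 (21.9–26.9), 1.64-fold (1.34–2.02) lower. On the log2 scale this is -0.68, but 0.08 relative to all regions and 0.18 under TMM, so its direction flipped with the scaling.

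Spib lay between the other genes. Its intron region held 4.90 (3.53–6.62) in E2A-KO and 46.9 (43.6–50.5) in Wt, 9.58-fold (7.02–13.4) lower, the 126th lowest log2 ratio of 4829 at -3.02. The -2.42 kb region inside Pold1 held 27.1 (23.7–30.8) and 82.7 (78.2–87.4), 3.06-fold (2.66–3.53) lower, or -0.82 relative to all regions. The order of the pair thus reversed, since in Wt the intron region had more signal per kb (115.9) than the -2.42 kb region (86.3), and in E2A-KO it had less (12.1 and 28.2). The plot of Wt and E2A-KO accessibility shows the values of all 3 genes, scaled by library totals, with intervals for counting error only.

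**Figure D1:**
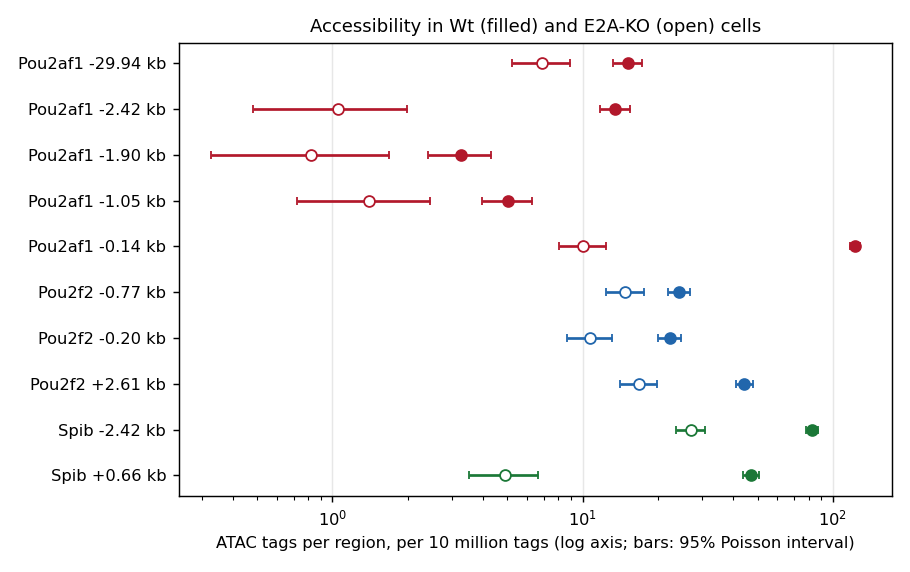
Accessibility of the 10 regions of Pou2af1 (red), Pou2f2 (blue) and Spib (green) in Wt (filled) and E2A-KO (open) cells, in tags per region per 10000000 tags on a log axis, with exact 95% Poisson intervals. Every open circle lies left of its filled circle, with the widest gaps at Pou2af1 -2.42 kb, Pou2af1 -0.14 kb and Spib +0.66 kb.

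Per kb of region, which allows genes to be compared, Wt accessibility was 109.5 at the Pou2af1 promoter, 115.9 and 86.3 at the Spib regions and 40.7 to 50.4 at the Pou2f2 regions. The median of all regions was 22.4, so the strongest region of each gene exceeded it. In E2A-KO the Pou2af1 promoter held 8.96 per kb, below the median of 10.9, while the 3 Pou2f2 regions held 19.1 to 30.2 and stayed above it. The order of the levels in E2A-KO was therefore Pou2f2 -0.77 kb, Spib -2.42 kb, then the other Pou2f2 regions, Spib +0.66 kb and the Pou2af1 promoter, with the other Pou2af1 regions last. Pou2f2 -0.77 kb and Spib -2.42 kb lay within each other's counting error, as did the other pair of Pou2f2 regions.

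Wt and Ebf1-KO cells were compared by 4 histone marks and by PolII. H3K4me3 marks active promoters, H3K4me2 promoters and enhancers, H3K27ac active elements of both kinds, and H3K27me3 chromatin held silent by Polycomb proteins. All 4 Pou2af1 regions had at least 2-fold more H3K4me2, H3K4me3 and H3K27ac in Wt than in Ebf1-KO, where 30.3%, 25.2% and 37.4% of all 3642 regions had. At Pou2f2 and Spib, 1 of 5 regions passed 2-fold in H3K4me2 and 0 in H3K4me3. In H3K27ac and in PolII (39.7% of all regions) 3 of these 5 did, and under TMM 1 of 5 did in each.

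At the Pou2af1 promoter H3K4me3 was 154 (145–163) in Wt and 3.62 (2.83–4.57) in Ebf1-KO, 42.6-fold (33.5–54.9) higher in Wt, the 9th highest log2 ratio of 3642 regions. H3K4me2 was 51.5 and 4.08, 12.6-fold (7.71–22.1) higher. H3K27ac was 67.4 and 8.51, 7.92-fold (5.10–12.8) higher. The promoter thus had a far larger ratio in H3K4me3 than in acetylation, and in Ebf1-KO its H3K27ac per kb still exceeded that of 34.3% of regions. PolII was 93.3 and 3.76, 24.8-fold (13.6–50.3) higher, from 239 and 11 tags, the 43rd highest of 3642. H3K27me3 was low in both, at 1.43 and 2.65, and its fold of 0.540 (0.226–1.20) was within counting error of 1. The region is classed as open in Ebf1-KO cells as well, so the class and the marks differ there.

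The upstream Pou2af1 regions had the same direction. At -29.94 kb H3K4me2 was 47.1 in Wt and 8.63 in Ebf1-KO, 5.46-fold (3.81–8.03) higher, H3K27ac was 36.6 and 7.40, 4.95-fold (3.02–8.49), and H3K4me3 was 12.8 and 5.81, 2.20-fold (1.66–2.91). H3K4me2 there was nearly as high as at the promoter, while H3K4me3 was much lower. At -2.42 kb H3K4me2 was 16.8 and 2.16, H3K4me3 6.92 and 0.31, H3K27ac 15.5 and 0.93, and PolII 21.1 and 2.05. The H3K27ac fold rests on 38 and 2.5 tags and was 16.6 (4.86–104.7). At -1.05 kb H3K4me2 was 16.03 and 0.48, H3K4me3 8.87 and 2.96, and H3K27ac 22.8 and 3.89. Per kb, the Ebf1-KO level of H3K27ac at -1.05 kb was 12.7, above the median of 11.2 for all regions. The H3K4me2 fold of 33.4 (8.90–282) rests on 66 tags in Wt and 2 in Ebf1-KO. PolII at -1.05 kb was 2.73 and 1.03, from 7 and 3 tags, and could not be distinguished at that depth (2.65-fold, 0.608–15.95). All 4 Pou2af1 regions were thus higher in Wt in 3 marks, and 3 of them in PolII.

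At Pou2f2 the 3 regions had much H3K4me3 in both genotypes. In Wt it was 82.6 in the intron, 87.0 at -0.20 kb and 15.5 at -0.77 kb, and in Ebf1-KO it was 89.1, 115 and 17.1. The folds of Wt over Ebf1-KO were 0.927 (0.845–1.02), 0.754 (0.691–0.823) and 0.909 (0.731–1.12), so the -0.20 kb region was 1.33-fold (1.22–1.45) higher in Ebf1-KO. H3K4me2 was 56.9 in Wt and 27.6 in Ebf1-KO in the intron, 2.06-fold (1.64–2.60) higher, while at -0.20 kb it was 44.5 and 52.5 and at -0.77 kb 23.1 and 24.9. The intron region, the 1 with an Ebf1 peak, was thus the only Pou2f2 region past 2-fold in H3K4me2, and under TMM its log2 ratio was 0.87.

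Scaled by library totals, H3K27ac and PolII at Pou2f2 had higher values in Wt, though not beyond counting error at every region. H3K27ac was 35.6 and 15.0 in the intron, 2.38-fold (1.62–3.54), and 14.9 and 2.59 at -0.77 kb, 5.74-fold (2.52–15.3). At -0.20 kb it was 13.2 and 7.77, 1.70-fold (0.954–3.10). This log2 ratio of 0.70 came to 0.003 after subtracting the median of all regions and to -0.005 under TMM. PolII was 30.8 and 12.0 in the intron, 2.58-fold (1.71–3.95), 19.9 and 5.47 at -0.20 kb, 3.64-fold (2.04–6.83), and 10.9 and 6.16 at -0.77 kb, 1.77-fold (0.948–3.41). At -0.20 kb the Pou2f2 promoter thus paired lower H3K4me3 in Wt with more PolII, while at -0.77 kb both differences were within counting error. Relative to all regions, the PolII log2 ratios were 0.62, 1.02 and 0.07.

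At Spib the methylation marks were mixed. H3K4me2 was 7.04 in Wt and 12.2 in Ebf1-KO at the intron region, 1.74-fold (1.08–2.84) higher in Ebf1-KO, and 22.6 and 25.9 at -2.42 kb, within counting error. H3K4me3 was 43.7 and 38.5 at the intron region, 1.14-fold (0.995–1.29), and 24.9 and 45.7 at -2.42 kb, 1.83-fold (1.57–2.16) higher in Ebf1-KO. Of these 4 values 2 were thus higher in Ebf1-KO beyond counting error, and none passed 2-fold.

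Scaled by library totals, H3K27ac at Spib was higher in Wt at both regions. It was 36.9 and 13.3 at -2.42 kb, 2.76-fold (1.86–4.19), and 21.6 and 10.4 at the intron region, 2.08-fold (1.29–3.42), where the log2 ratio of 0.99 stayed under the threshold. Relative to all regions these log2 ratios were 0.71 and 0.29, and under TMM 0.66 and 0.27. PolII was 23.4 and 7.87 at the intron region, 2.98-fold (1.81–5.04), with a log2 ratio of 0.79 both relative to all regions and under TMM. At -2.42 kb it was 49.6 and 48.6, 1.02-fold (0.797–1.31), a log2 ratio of 0.03 that turned to -0.64 once the median was subtracted and to -0.68 under TMM. Under TMM, then, no Spib region passed 2-fold in H3K27ac or PolII. The -2.42 kb region lies inside the Pold1 gene, so PolII there can belong to either gene.

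Of the 9 regions, 5 were higher in Wt in H3K4me2 (30.3% of all 3642), 4 in H3K4me3 (25.2%), 7 in H3K27ac (37.4%) and 6 in PolII (39.7%), and 0 were lower in these 4. All 4 of the H3K4me3 calls are Pou2af1 regions. H3K27me3 was 0 to 3.30 at every region in both genotypes, with 0 tags at the Spib intron region in Wt (taken as up to 3 tags, this allows a value of up to 0.43) and 1 tag in Ebf1-KO. Of the 9 regions 1, Pou2af1 -2.42 kb, was lower in Wt (16.9% of all), from 1 tag in Wt and 10 in Ebf1-KO (9.21-fold, 1.29–392). The medians of all regions were 0.70 for H3K27ac and 0.67 for PolII on the log2 scale, against 0.18, -0.02 and 0.03 for H3K4me2, H3K4me3 and H3K27me3. Under TMM, 19.5% of all regions were higher and 8.32% lower in H3K27ac, in place of 37.4% and 1.15%. For PolII these shares were 25.7% and 18.4%, in place of 39.7% and 7.03%. Of the member regions, 5 then remained higher in H3K27ac and 4 in PolII. The plot of ratios by mark sets the 3 genes against the quartiles of all regions.

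**Figure D2:**
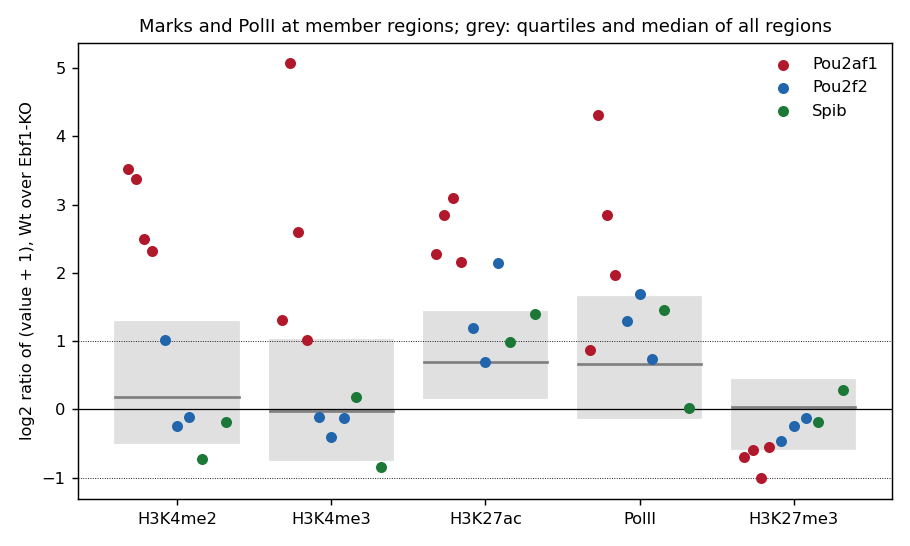
Log2 ratio of value plus 1, Wt over Ebf1-KO, for 4 histone marks and PolII at the 9 regions (points by gene), with the quartiles and median of all 3642 regions in grey and 2-fold as dotted lines. Pou2af1 points lie above the grey boxes in H3K4me2 and H3K27ac, with the promoter at 5.07 in H3K4me3, and Pou2f2 and Spib points lie mostly within the boxes.

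BRG1, the ATPase of SWI/SNF remodelling complexes, and EP300, an acetyltransferase of active enhancers, were deposited for the Ebf1-bound regions, 1 of each gene. The Wt EP300 sample carries a label that names PolII antibodies with a question mark, so the Wt EP300 values stand under that doubt. The 3 regions split. Pou2af1 had far more of both factors in Wt, and Spib had more of both in Ebf1-KO, as had Pou2f2 for BRG1.

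At the Pou2af1 promoter BRG1 was 32.5 (27.9–37.8) in Wt and 1.47 (0.590–3.03) in Ebf1-KO, 22.1-fold (10.5–56.0) higher, the 17th highest log2 ratio of 1172. EP300 was 56.2 (49.2–64.0) and 2.04 (1.09–3.48), 27.6-fold (15.8–52.6) higher, the 16th highest. Per kb, the Ebf1-KO level of BRG1 there was below that of all but 4.86% of the regions.

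At the Spib -2.42 kb region BRG1 was 14.4 (11.3–18.0) in Wt and 43.6 (37.9–50.0) in Ebf1-KO, 3.03-fold (2.32–4.00) higher in Ebf1-KO, the 42nd lowest log2 ratio of Wt over Ebf1-KO. EP300 was 20.4 (16.3–25.3) and 52.5 (47.0–58.4), 2.57-fold (2.02–3.30) higher in Ebf1-KO, the 84th lowest. Per kb, its Ebf1-KO levels exceeded 96.8% of regions for BRG1 and 98.3% for EP300. The same region had more H3K27ac in Wt, so acetylation and EP300 signal differed in direction there.

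At the Pou2f2 intron region BRG1 was 7.00 (4.93–9.65) in Wt and 17.4 (13.9–21.6) in Ebf1-KO, 2.49-fold (1.67–3.77) higher in Ebf1-KO. EP300 was 9.74 (6.96–13.3) and 14.4 (11.6–17.7), 1.48-fold (1.01–2.20) higher in Ebf1-KO. Under TMM its EP300 log2 ratio went from -0.52 to -1.06 and so past 2-fold. Of the 3 regions, then, 1 was higher in Wt for BRG1 (32.4% of all 1172) and for EP300 (36.9%), 2 were lower for BRG1 (9.98%) and 1 was lower for EP300 (11%). The medians of all regions were 0.29 and 0.56. Under TMM 27.1% were higher and 16.04% lower for BRG1, in place of 32.4% and 9.98%, and 26.5% and 21.7% for EP300, in place of 36.9% and 11.0%, and the directions of the 3 regions did not flip.

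The 4OHT series followed accessibility at the same 3 regions in Ebf1-KO cells with Ebf1ER. Only the Pou2f2 intron region passed 2-fold. It held 5.29 (3.42–7.80) at 0 h, 16.4 (12.4–21.3) at 6 h, 21.3 (16.8–26.6) at 24 h and 16.1 (12.2–20.95) at 72 h. At 6 h it was 3.10-fold (1.91–5.19) above its 0 h value, the 15th highest log2 ratio of 1172. The fold was 4.03 (2.54–6.60) at 24 h, the 34th highest, and 3.05 (1.87–5.11) at 72 h, the 101st highest. All 3 later values lay above the interval at 0 h, and among themselves their intervals overlapped.

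The Pou2af1 promoter held 7.40 (5.16–10.3), 6.05 (3.75–9.25), 5.74 (3.55–8.77) and 11.8 (8.48–16.02) at 0, 6, 24 and 72 h, from 35, 21, 21 and 41 tags. The ratio at 72 h was 1.60-fold (0.992–2.58), and the differences at 6 and 24 h were within counting error. A difference from 0 h was thus not detectable at this depth. Its level at 72 h, 10.5 per kb, was below the median of 17.2 for the 1172 Ebf1-bound regions. In the Wt accessibility table, where values were scaled the same way, the promoter exceeded 97.1% of 4829 regions. These are different sets of regions, so the standings are not directly comparable.

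The Spib -2.42 kb region was open at every time, with 54.1 (47.7–61.2), 63.7 (55.6–72.6), 67.5 (59.3–76.4) and 60.8 (52.9–69.6). The ratios to 0 h were 1.18 (0.978–1.41), 1.25 (1.04–1.49) and 1.12 (0.932–1.35). Under TMM all 3 flipped to log2 ratios of -0.05, -0.24 and -0.42, so no direction is given. Per kb it was above 94.1% of the 1172 regions at 0 h, when Pou2f2 was above 31.5% and Pou2af1 above 35.5%.

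Of the 3 regions 1 was higher than at 0 h at each time, where 5.97% of all regions were at 6 h, 16.1% at 24 h and 18.2% at 72 h. The median log2 ratios were 0.26, 0.47 and 0.50, and the 3 comparisons share the 0 h column. Under TMM the shares of higher and lower regions were 3.41% and 1.71% at 6 h in place of 5.97% and 0.597%, 5.97% and 2.65% at 24 h in place of 16.1% and 0.853%, and 6.83% and 2.73% at 72 h in place of 18.2% and 0.597%. The Pou2f2 log2 ratio then stood at 1.23, 1.33 and 0.92. Ebf1ER, 4OHT itself and time in culture cannot be told apart. The 6 h and 72 h columns have nearly the same library total, 34710011 and 34710016 tags, though their values differ. The plot of the Ebf1-bound regions sets the factor levels beside the time course.

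**Figure D3:**
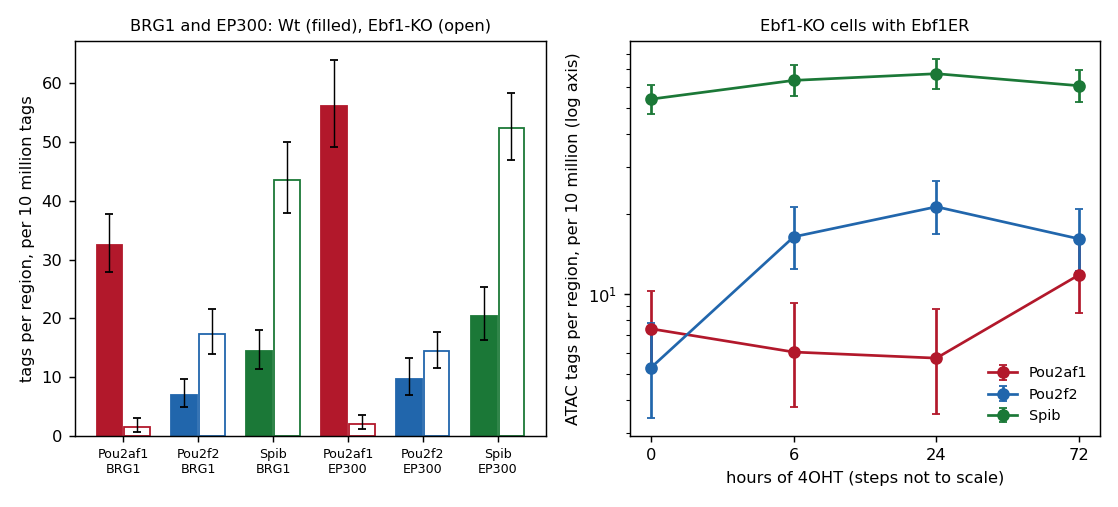
Left, BRG1 and EP300 tags per region in Wt (filled bars) and Ebf1-KO (open bars) at the Ebf1-bound region of each gene; right, ATAC tags at the same regions over hours of 4OHT on a log axis, both per 10000000 tags with exact 95% Poisson intervals. Pou2af1 bars are tall in Wt only, Spib bars are taller in Ebf1-KO, and the Pou2f2 line lies near 5 at 0 h and above 16 later.

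Fli1 (an Ets factor) and Ikzf1 (Ikaros) peaks from Wt cells were listed by the authors with a peak score. The Pou2af1 promoter held the Fli1 peak chr9:51213238-51213590 with a score of 73.8, the 78th of 27261 peaks. The Pou2f2 promoter held chr7:25132391-25132743 with 32.4 (rank 3490). Both Spib regions held a Fli1 peak, chr7:44534360-44534712 with 23.3 (rank 7881) and chr7:44531327-44531679 with 20.5 (rank 9921). Another Pou2af1 peak, chr9:51194938-51195290 with 11.9, lay 18.6 kb before the Pou2af1 start, outside the regions of the E2A table. Of these peaks, that at the Pou2af1 promoter thus ranked far higher than the rest.

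Among Ikzf1 peaks, 1 of 5741 was named for these genes and overlapped their regions, at Spib -2.42 kb (chr7:44534109-44534293, score 7.05, rank 2637). Of the 10 regions 4 overlapped a Fli1 peak, against 36.8% of all regions, and 1 an Ikzf1 peak, against 11.8%. Of the 10, 3 were Ebf1-bound, against 25.0% of all regions. The window of the Pou2f2 promoter printed above lies inside the Fli1 peak, and its 300 bases hold no AGGAAG. The printed letters do hold the Ets core GGAA on the opposite strand (TTCC as printed). The missing longer word thus does not mean that Ets cores are absent there.

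PLAC-seq, which maps contacts of H3K4me3-marked chromatin, gave 69898 interactions between 5 kb bins in the 230-238 line, with a median of 16 contacts and q of at most 0.05 as listed. Interactions with a bin over an accessible region of the gene numbered 9 for Pou2af1, 18 for Pou2f2 and 2 for Spib. The median was 7 for the 6130 genes with an accessible promoter region. Of these genes, 56.7% had fewer than Pou2af1, 90.0% fewer than Pou2f2 and 11.9% fewer than Spib. The number of accessible regions, which sets how many bins can be counted, was 13, 6 and 2. Spib has no accessible region called as its promoter in that line.

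The Pou2af1 contacts joined its own regions and the sequence around them. The bin of the -29.94 kb region and the promoter bin (chr9:51180001-51185000 and chr9:51210001-51215000) shared 47 contacts (q = 2.79e-10), more than 91.7% of the listed interactions. That share is over all distances, with a median of 130 kb, while this pair lies 30 kb apart. A bin in the gene body (chr9:51225001-51230000) had 66 contacts with chr9:51215001-51220000 (q = 0.0405), and 50 with chr9:51240001-51245000 (q = 0.000338). Further bins joined were 125 kb apart, from chr9:51165001-51170000 to regions named for Gm684 with 28 contacts (q = 4.39e-09), and 430 kb apart, from the promoter to a region named for Alg9 with 9 contacts (q = 0.0228). None of the other bins held the accessible promoter of another gene. The -29.94 kb region, whose accessibility ratio in E2A-KO was smaller than the promoter's, is thus the 1 distal accessible region of the gene in listed contact with the promoter bin.

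The Pou2f2 promoter bin (chr7:25130001-25135000) took part in 16 of the 18 interactions. The most contacts, 63, joined it to a bin 25 kb into the gene (q = 4.18e-08), which holds accessible regions in intron 5 that the annotation names for Mir6537. Next came 45 contacts with a bin 50 kb upstream of the start used here (q = 2.65e-14). That bin (chr7:25180001-25185000) holds the 5′ end of RefSeq's Pou2f2 span, chr7:25180797. Promoters of other genes in contact with it were those of Dedd2 and Zfp526 in 1 bin (38 contacts, q = 1.67e-09), Gsk3a, which encodes a glycogen synthase kinase (34, q = 8.30e-10), and Lipe, which encodes hormone-sensitive lipase (18, q = 7.04e-05). Ebf1-bound regions lay in the bins of Mir7048 (28 contacts) and Pafah1b3 (23 contacts). Pou2f2 thus had listed contacts with bins of several other promoters, and Pou2af1 had none.

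Both Spib interactions start from the bin that holds its 2 regions and its start (chr7:44530001-44535000). They reached the promoter of Emc10, a subunit of the ER membrane protein complex, at 35 kb (28 contacts, q = 0.00129), and that of the nuclear pore gene Nup62 at 285 kb (12 contacts, q = 0.00461). The bin also covers part of Pold1, so these contacts cannot be assigned to Spib alone. The arcs in the PLAC-seq plot give all interactions by distance.

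**Figure D4:**
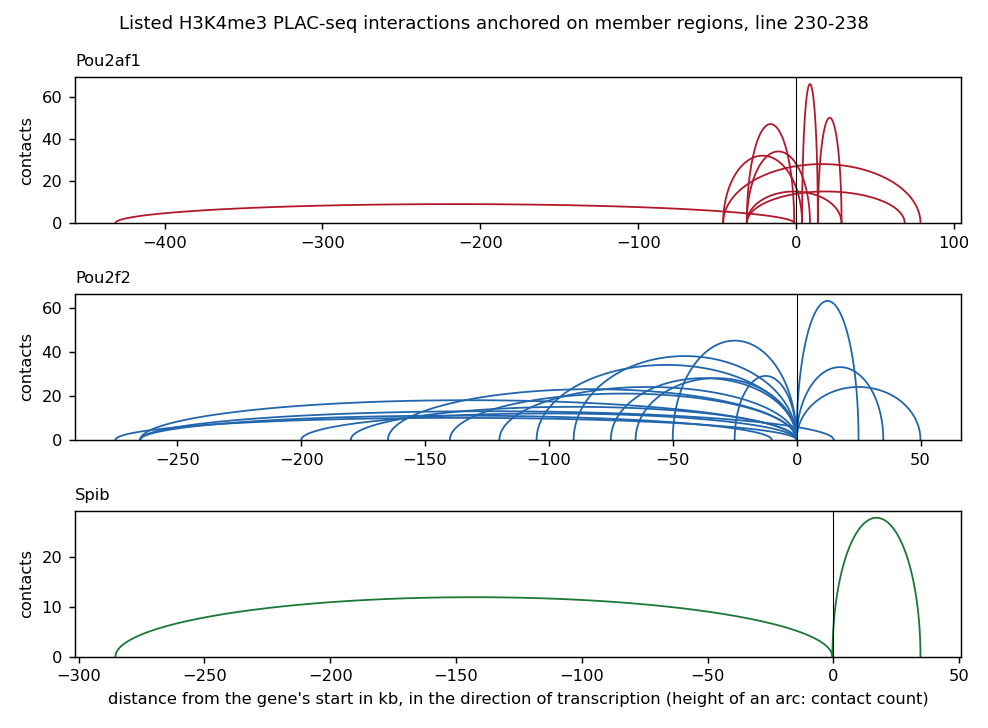
Listed PLAC-seq interactions anchored on the accessible regions of Pou2af1, Pou2f2 and Spib in the 230-238 line. The x axis is the distance from the gene's start in kb in the direction of transcription, and the height of an arc is its contact count. Most Pou2af1 arcs stay within 125 kb, Pou2f2 arcs reach 275 kb upstream, and Spib has 2.

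Nearest-start naming leaves some regions inside these genes under other names, and they were chosen here after their values had been seen. RefSeq's Pou2f2 spans chr7:25087350-25180797 and holds 8 regions of the E2A table, of which 3 are named Pou2f2. On the minus strand, the 5′ end of this span is chr7:25180797. The Pou2f2 start used here for distances and for the printed promoter lies inside the span. Close to the 5′ end, chr7:25179392-25180026 (named D930028M14Rik) had 14.2 accessibility tags in E2A-KO and 19.8 in Wt. Its H3K4me2 was 43.97 in Wt and 34.5 in Ebf1-KO. The intron 5 region chr7:25106531-25107479, in the bin with 63 contacts, had 9.33 accessibility tags in E2A-KO and 19.8 in Wt, with H3K4me2 at 17.0 in Wt and 6.95 in Ebf1-KO and H3K27ac at 13.0 and 5.92. The other intron 5 region in that bin, chr7:25105849-25106466, had 9.56 in E2A-KO and 15.5 in Wt. It differed from intron 1, with H3K4me3 at 5.48 in Wt and 1.79 in Ebf1-KO and PolII at 5.46 and 9.23. Exon 6 of Spib (chr7:44527536-44528440, named Mybpc2) had 19.6 in E2A-KO and 45.7 in Wt. Its H3K4me3 was 28.97 in Wt and 59.6 in Ebf1-KO, its H3K27ac 28.9 and 17.4, and its PolII 32.4 and 15.1. A region at the end of Spib (chr7:44525376-44526004, also named Mybpc2) had 5.01 in E2A-KO and 10.9 in Wt. Its marks were higher in Wt, with H3K4me2 at 12.4 and 1.92, H3K4me3 at 4.31 and 1.33, H3K27ac at 10.8 and 2.04 and PolII at 11.3 and 2.74. The exon and the end of the gene thus differed in the direction of H3K4me3.

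Over 5 log2 ratios (E2A-KO over Wt accessibility and Wt over Ebf1-KO in the 4 marks), each gene was compared with 1626 genes by Euclidean distance between their strongest regions. The nearest to Pou2af1 were Cd79a, a signalling chain of the B-cell receptor (0.77), 1700027J07Rik (0.97) and Plxna1 (1.52), where the median gene stood at 7.41. Cd79a had -3.06 in accessibility, 4.57 in H3K4me3, 3.65 in H3K4me2 and 2.69 in H3K27ac, beside -3.49, 5.07, 3.37 and 2.85 for Pou2af1. Nearest to Pou2f2 were the Mir6537 region in its own intron 5 (0.44), Ifi27l2a (0.51) and Tnfsf9 (0.58), against a median of 2.29. Nearest to Spib were Tmc8 (0.34), Epb41l4b (0.47) and Vpreb2 (0.51), against 2.15. By the strongest regions of the 3 genes, Pou2f2 and Spib were 1.63 apart, and Pou2af1 was 6.30 from Pou2f2 and 7.36 from Spib.

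Partners of these factors, fixed as a list of 11 other octamer-binding, Ets and Irf genes, had regions for 4 genes in the E2A table. Fli1 (20.8 in E2A-KO and 87.6 in Wt) was lower, at a log2 ratio of -2.03. Ets1 (44.6 and 79.5), Irf4 (24.4 and 48.6) and Irf8 (29.4 and 59.6) were within 2-fold, from -0.819 to -0.997. Over all 1788 genes by their strongest region, 43.1% were lower. In Wt against Ebf1-KO, Irf4, which with PU.1 or Spi-B binds Ets-Irf sites, was the 1 partner higher in H3K4me3 (188 and 34.9) and in H3K27ac (49.9 and 4.44). PolII was higher at 3 of 4, namely Ets1 (150 and 7.87), Fli1 (95.6 and 17.4) and Irf4 (24.6 and 4.79). Over all 1624 genes 21.6% were higher in H3K4me3, 35.7% in H3K27ac and 41.1% in PolII. Here and below, the region of a gene was picked anew for each mark, for PolII, BRG1 and EP300, by most Wt signal. For the 4OHT series it was picked by most signal at 0 h. Values of 1 gene can therefore come from different regions.

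Genes known as targets of octamer factors, Pou2af1 or the PU.1 and Spi-B pair numbered 13 measured of 23. All 13 were lower in E2A-KO, with a median log2 ratio of -2.74 beside -0.88 for all genes. Examples are Fcrla, an Fc receptor-like protein (7.58 in E2A-KO and 93.8 in Wt), the complement receptor gene Cr2 (17.9 and 89.5) and the adaptor gene Blnk (10.6 and 60.2). In Wt against Ebf1-KO, 10 of 13 were higher in H3K4me2, 10 in H3K4me3 with 1 lower (Btk, 40.3 and 84.6), 13 in H3K27ac and 10 in PolII. Over all 1624 genes these shares were 25.4%, 21.6%, 35.7% and 41.1%. Of the 11 with an Ebf1-bound region, 6 were higher in BRG1 (32.0% of 804 genes) and 7 in EP300 (40.0%), with 1 lower in EP300 (Cd22, 7.79 in Wt and 23.2 in Ebf1-KO). In the 4OHT series 3 were higher than at 0 h at 6 h, 4 at 24 h and 5 at 72 h, beside 3.50%, 12.5% and 14.1% of 800 genes. Of the examples named, Fcrla was among those at 24 h (15.3 against 5.92 at 0 h) and 72 h (31.1), but not at 6 h (11.8). Cr2 (4.65 at 0 h, 4.37 at 24 h and 4.03 at 72 h) and Blnk (2.75, 4.64 and 3.75) stayed within 2-fold at every time. Whether the targets follow Pou2f2 or Pou2af1 was not tested. Of other B-lineage factor genes, 10 of 14 were measured, and 6 were lower in E2A-KO, beside the 43.1% of all genes. In Wt against Ebf1-KO, 4 were higher and 2 lower in H3K4me2, 4 higher and 1 lower in H3K4me3, 6 higher in H3K27ac and 6 in PolII, beside the shares of all 1624 genes given above. In H3K27me3 4 were lower, where 18.2% of all genes were.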

How the data were processed

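Deposited tables of 54 samples were read as the authors left them. The submitters' processing notes name Trim Galore 0.6.4, Bowtie2 2.3.5, SAMtools 1.9, deepTools 3.3.1, HOMER 4.10 and HiC-Pro 2.11.1, and FastQC, Picard, MACS2 and edgeR without versions, with the build mm10 (GRCm38.p5). The authors' signal values count tags in each region after HOMER scaled every library to 10000000 tags, per the file headers. Undoing that scaling gave whole tags within rounding in 100% of regions, except that CUT&RUN H3K27ac and H3K27me3 came in steps of 0.5 tag. The contact counts and q-values of the PLAC-seq list and the Fli1 and Ikzf1 peak scores were used as deposited. The accessible regions of the 230-238 line were used for their positions.

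ATAC, H3K4me3 and H3K27me3 columns are pools and the others single libraries, so the planned limma test on replicates could not be made. The name of the Wt ATAC column speaks of 6 pooled libraries, where 3 Wt samples are labelled. Whether replicates came from different animals is not given in the sources used here. Of the ATAC table, 2 columns (Pax5-KO and Ebf1-KO) match no labelled sample and were not used. Regions repeated in the deposited rows (154 of the 4983 rows of the E2A table and 122 of the 3764 histone rows) were counted once, and no region of the 3 genes is repeated.

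Ratios are log2 of (value plus 1) per region, with exact Poisson intervals for values and exact conditional intervals for ratios of tags (SciPy 1.17.1 under Python 3.11.15, with pandas 2.3.3 and numpy 2.4.6, and matplotlib 3.10.9 for plots). The ratio script was tested on simulated data. For TMM, calcNormFactors (edgeR 4.0.16, R 4.3.3) was run on the recovered tags. A peak overlapped a region by at least 1 bp, and an interaction was counted once if either bin overlapped an accessible region of the gene. Alternatives were TMM, pseudocounts of 0.5 and 5, ratios relative to the median, a minimum value of 10 tags, regions within 10 kb, a threshold of 1.5-fold, sums without the strongest region, stricter q, overlap and score limits, and centred likeness distances. The genes, gene lists and motifs were chosen with earlier results of these data known. Besides the 3 genes, the text names fixed partner genes, up to 6 target genes by Wt accessibility, the 3 nearest genes by likeness, accessible promoters in contact with a member and genes that hold its regions. The genes named beside further PLAC-seq bins, Btk, Cd22, Mybpc2 and D930028M14Rik were chosen after their values were seen. Gene expression, and Fli1 and Ikzf1 in Ebf1-KO cells, were not analysed here.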

Additional observations from a re-analysis of the deposited data

How the results depend on the processing

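No paired analysis was possible because each group is a single column, and for the same reason no replicate could be left out. Under TMM the regions lower in E2A-KO numbered 3 in place of 8, those lower in Wt in H3K27me3 0 in place of 1, those lower in Wt in EP300 2 in place of 1 and those higher at 72 h 0 in place of 1. With a threshold of 1.5-fold, 1 region was lower in Wt in H3K4me2 and 1 in H3K4me3 in place of 0, 3 were lower in H3K27me3 in place of 1, and 2 were higher at 72 h in place of 1. The Pou2af1 interactions numbered 5 at q of at most 0.01 and 2 from the accessible promoter alone, in place of 9, and for Spib, without such a promoter region, the latter has no value. Of the 70 log2 ratios, 25 moved by more than their counting interval under TMM, 24 relative to the median, 18 with a pseudocount of 5 and 1 with 0.5. Of 18 sums over a gene's regions, 10 moved likewise without the strongest region. No count of regions moved by over 1.5 times with a minimum of 10 tags or within 10 kb, and the counts of regions under Fli1 and Ikzf1 peaks moved under neither stricter limit. The nearest genes by likeness were the same 3 for each gene after centring. Depth limits H3K27me3 (at most 25.5 tags in any of these regions), PolII at Pou2af1 -1.05 kb (7 and 3 tags) and the Pou2af1 promoter over 4OHT (21 to 41 tags).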
